A study of Mus musculus with 8 samples.

Results

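The genes of cholesterol and fatty acid synthesis were followed in islets of 1-year-old C57BL/6 mice. The set holds 32 genes, picked by name from the 48709 genes of each deposited table: 6 mevalonate enzymes, 11 sterol enzymes, 5 regulators of the SREBP transcription factors, the sterol carrier Stard4, 6 genes of fatty acid synthesis, and 3 of fatty acid elongation and desaturation. The control islets carried the genotype Flox/Flox. The other islets were labelled β-Tead1-KO, a name that places a loss of Tead1, a DNA-binding partner of the Hippo coactivators YAP and TAZ, in the insulin-producing β-cells. The labels do not name the driver of the deletion, and the controls are described by the floxed allele alone. Each genotype had 2 libraries, each read on 2 lanes. The series' design text speaks of 3 samples pooled into a library, whereas a library's description holds only 1 or 2 numbers. How many mice a pool holds is therefore unclear, and p-values measure the spread between these pools.

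Cells make cholesterol from acetyl-CoA through mevalonate, isoprenoid diphosphates, squalene and lanosterol. Fatty acids come from the same acetyl-CoA, released in the cytosol from citrate, carboxylated, condensed to palmitate, and then lengthened and desaturated. Both routes are switched on by SREBP transcription factors. Their precursors sit in the endoplasmic reticulum with the escort protein Scap, and the Insig proteins hold the complex there while sterols are plentiful. In β-cells, much of the citrate made from glucose can leave the mitochondria and feed the fatty acid route.

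Sequencing depth, as total exon reads, was 21938244 for Flox library 1, 14069569 for Flox library 2, 22352518 for β-Tead1-KO library 1 and 26387280 for β-Tead1-KO library 2. Intron reads made up 28.8% and 43.1% of the gene reads of Flox islets, against 29.4% and 38.0% for β-Tead1-KO. Tead1 itself did not check the labels: its exon level was 101.3 and 123.7 CPM in Flox against 136.5 and 163.3 CPM under the β-Tead1-KO label (log2 fold change 0.41, SE 0.19, edgeR adjusted p = 0.347). CPM here are exon reads scaled with TMM factors to a common library total, and every fold change sets the libraries labelled β-Tead1-KO over Flox. The 10 β-cell markers summed to between 185900 and 224400 CPM per library, mostly from the hormone genes Ins1, Ins2 and Iapp. Of these 10, 7 lay below both Flox libraries in both β-Tead1-KO libraries and 1 lay above (Iapp). Of all genes, 24.2% lay below and 23.9% above. Among the 10, 1 was called lower, where 1.6% of all genes were. It was the glucose transporter gene Slc2a2 (log2 fold change −2.30, SE 0.26, adjusted p = 0.0138 by edgeR), with only 43.3% of its exon reads unique. Of the other cells, the alpha markers summed to 17160 and 13330 CPM in Flox against 9383 and 7464, the delta markers to 1805 and 2068 against 621 and 463, the pancreatic polypeptide cell markers to 2438 and 2617 against 1078 and 572, the mesenchymal markers to 234.5 and 192 against 310 and 283, and the erythroid markers to 121.1 and 52.5 against 317 and 235. Acinar markers moved with the library number (1834 and 6332 CPM in Flox, 910 and 7628 CPM in β-Tead1-KO). In such bulk RNA, fewer cells of a type and less RNA per cell cannot be told apart.

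The promoters of the set share a short element that the choice of genes did not use. RefSeq promoter windows (GRCm38.p6) were available for 26 of the 32 genes, and the 250 bases before each annotated start were searched on both strands. No window was available for Fdps, Fdft1, Sqle, Stard4, Scd1 and Scd2, so these genes were not searched for any motif. The CCAAT box, the site of the factor NF-Y that works beside SREBPs at many sterol genes, was searched as CCAAT and was found in 22 of the 26 genes (84.6%), compared with 37.5% of all 27025 genes with a window. The sterol regulatory element, the site SREBPs bind, was searched as TCACNCCAC. An exact match was found in Hmgcs1 alone among the 26 (3.85%, against 1.22% of all genes). Sites that differ from these letters, or lie outside the 250 bases, were not counted. The E-box CACGTG was found in 5 of the 26 (19.2%, against 6.86% of all genes) and the TEAD motif GGAATG in Acss2 and Me1 (7.69%, against 14.4%). Matches to different motifs overlapped in 0 cases in the windows of the 26 genes. The 4 windows printed here belong to a mevalonate enzyme, an SREBP brake, an SREBP and the fatty acid synthase. Each is written 5′ to 3′ on the gene's strand, with matches to the sterol regulatory element, the CCAAT box and the E-box in capitals.

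Hmgcs1, chr13:119690101-119690350, plus strand: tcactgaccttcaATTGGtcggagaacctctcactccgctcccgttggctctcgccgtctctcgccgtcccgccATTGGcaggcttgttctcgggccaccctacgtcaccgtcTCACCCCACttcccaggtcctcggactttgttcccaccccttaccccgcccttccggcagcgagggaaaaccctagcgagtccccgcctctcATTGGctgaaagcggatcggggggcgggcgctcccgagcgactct
Insig1, chr5:28071162-28071411, plus strand: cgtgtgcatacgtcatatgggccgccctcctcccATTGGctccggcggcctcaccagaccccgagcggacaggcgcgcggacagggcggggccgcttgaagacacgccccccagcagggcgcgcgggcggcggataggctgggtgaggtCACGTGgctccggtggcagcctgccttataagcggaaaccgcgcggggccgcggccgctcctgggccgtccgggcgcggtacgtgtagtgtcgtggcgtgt
Srebf2, chr15:82147019-82147268, plus strand: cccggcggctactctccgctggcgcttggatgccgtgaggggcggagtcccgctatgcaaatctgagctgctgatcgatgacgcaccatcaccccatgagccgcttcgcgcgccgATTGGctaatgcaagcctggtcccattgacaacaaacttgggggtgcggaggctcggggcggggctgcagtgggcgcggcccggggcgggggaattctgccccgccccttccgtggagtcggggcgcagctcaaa
Fasn, chr11:120824548-120824797, minus strand: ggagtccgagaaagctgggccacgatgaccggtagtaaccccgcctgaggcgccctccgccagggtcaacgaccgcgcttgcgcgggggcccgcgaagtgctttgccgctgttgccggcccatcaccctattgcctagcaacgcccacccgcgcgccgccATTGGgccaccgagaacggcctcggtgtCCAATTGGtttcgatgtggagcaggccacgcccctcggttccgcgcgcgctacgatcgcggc

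Hmgcs1 carries 3 CCAAT boxes, all read as ATTGG on the gene's strand, and the single exact match to the sterol regulatory element. Insig1 carries 1 CCAAT box and 1 E-box, Srebf2 1 CCAAT box, and Fasn 3, of which a pair overlap as CCAATTGG. A match is a description of the letters and does not show that a factor binds there, and the lack of a match does not show that none binds.

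Among the 32 genes, all of which were abundant enough to be tested, 1 fell under the β-Tead1-KO label and 0 rose. The gene that fell was Scd2, a stearoyl-CoA desaturase. Over all 15014 genes tested, 3.36% passed the test, 1.6% lower and 1.76% higher (edgeR's quasi-likelihood test, Benjamini-Hochberg adjusted p below 0.05), so 1 of 32 is near the share of all genes. Without adjustment, 10 of the 32 had a p below 0.05 and all 10 were lower, where 8.71% of all genes were lower at that level. DESeq2 called 4 of the 32 lower (Fdps, Srebf1, Srebf2 and Scd2) and 0 higher, where it called 3.76% of all genes lower and 3.83% higher.

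The fold changes leaned to lower values. The log2 fold change was below 0 for 26 of the 32 genes, against 51.2% of all genes, and its median was −0.37, against −0.01 over all genes tested. Both libraries labelled β-Tead1-KO lay below both Flox libraries for 19 genes (24.2% of all genes did so) and above both for 2, Insig1 and Dhcr7 (23.9% of all genes). The other 11 overlapped. The size of the lean rested in part on Flox library 2, the shallowest library: without it the median was −0.14. Genes of a shared pathway are not independent of one another, and no test was made over the set.

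**Figure D1:**
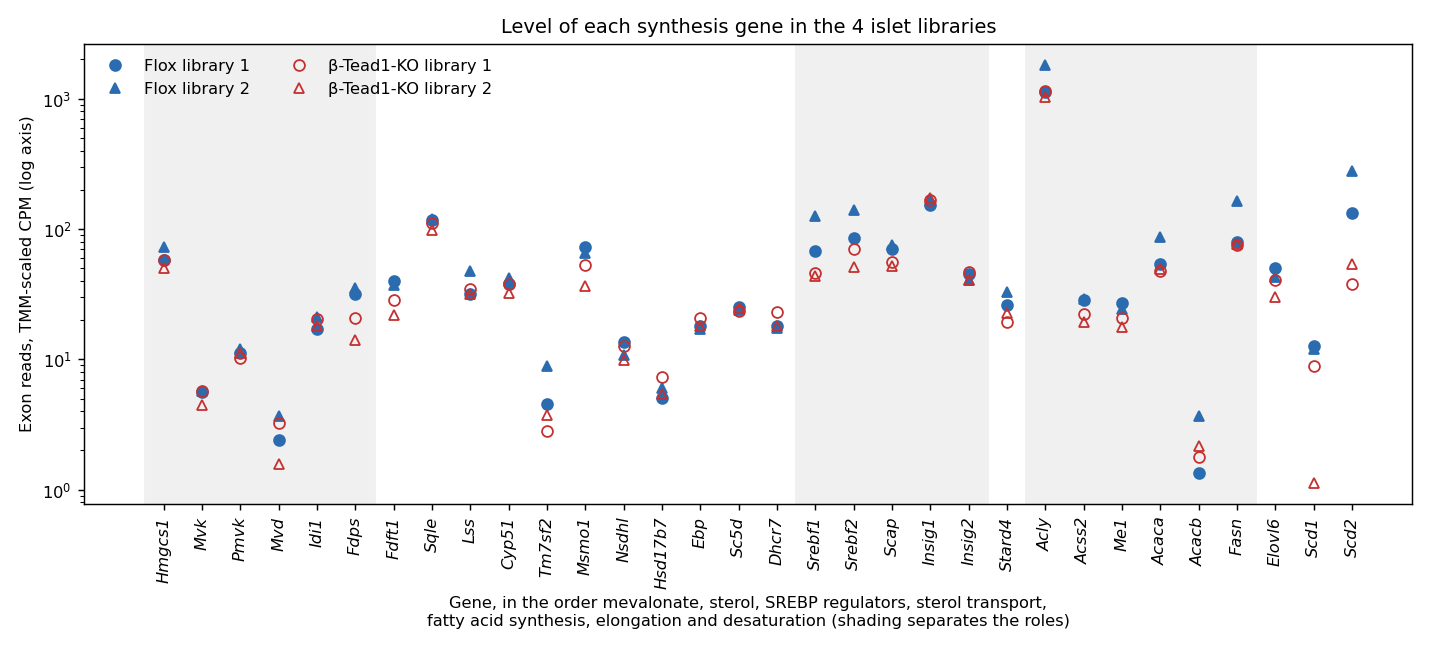
Level of each of the 32 genes in every library, as TMM-scaled CPM of exon reads on a log axis. Filled blue symbols are the 2 Flox libraries and open red symbols the 2 libraries labelled β-Tead1-KO, circles for library 1 and triangles for library 2, and shading separates the roles. Scd2 shows the widest gap between the genotypes, Scd1 is low in β-Tead1-KO library 2 alone, and Acly stands above all other genes.

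Scd2 (chr19:44293676-44306864, mm10, plus strand) encodes the desaturase that puts the first double bond into stearoyl- and palmitoyl-CoA, and is the main form in mouse brain. Its exon reads were at 132.1 and 277.9 CPM in Flox, against 37.7 and 54.2 CPM in β-Tead1-KO. The groups did not overlap, although the Flox libraries differed from each other by 1.07 on the log2 scale. This gave a log2 fold change of −2.16 (SE 0.39, 95% interval −3.12 to −1.19, n = 2 per genotype, edgeR adjusted p = 0.0496).

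The same fall was seen in reads that cross exon junctions, at −2.36 on the log2 scale (edgeR adjusted p = 0.026). Intron reads of Scd2 were few, with 23 and 175 in Flox and 10 and 31 in β-Tead1-KO, and gave −2.34 (edgeR adjusted p = 0.152). The call stood at the edge of the threshold. It was lost with limma-voom (adjusted p = 0.0545), with edgeR's legacy mode (0.054), with RLE factors (0.0519) and with no filter on low counts (0.06). It was also lost without β-Tead1-KO library 1 (adjusted p = 0.27) or library 2 (adjusted p = 0.204), while the log2 fold change stayed between −2.59 and −1.52 whichever library was left out. With a library left out, its genotype has 1 library, which is assumed to vary like the pair of the other genotype. In the same libraries, both β-Tead1-KO values lay below both Flox values for 7 of 10 β-cell, 4 of 5 alpha, 3 of 3 delta and 2 of 2 pancreatic polypeptide cell markers (24.2% of all genes did so), with 1, 1, 1 and 0 of them called lower. Their part in the result was not tested. Of 8 adipocyte markers, Adipoq, Lep, Retn and Cfd were at 0 in every library, and the 8 summed to 25.2 and 14.2 CPM in Flox against 33.5 and 26.7 CPM. Only Fabp4 was higher, at 13.47 and 3.60 CPM in Flox against 27.25 and 21.36 CPM. Pparg was lower, at 11.56 and 9.31 CPM in Flox against 6.27 and 5.37 CPM. Plin1 and Cidec had few exon reads in Flox and 0 in β-Tead1-KO.

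The neighbouring desaturase genes on chromosome 19 gave less firm values. Scd1 (chr19:44394451-44407709, minus strand), the main form in liver and fat, was at 12.7 and 12.0 CPM in Flox, against 8.83 and 1.13 CPM in β-Tead1-KO. Only β-Tead1-KO library 2 stood far below the others. Scd1 had a log2 fold change of −1.32 (SE 0.81, adjusted p = 0.5 by edgeR), and it was −0.46 without that library and −3.42 without β-Tead1-KO library 1 (edgeR adjusted p = 0.0418). Scd3, which is not one of the 32 and was singled out after its values were seen, was at 1.44 and 1.69 CPM in Flox and 0.269 and 0.375 CPM in β-Tead1-KO. Its log2 fold change of −2.24 missed the threshold (SE 0.52, edgeR adjusted p = 0.0963). Scd4 had at most 2 reads in any library and was not tested.

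Elovl6, which lengthens palmitate to stearate, was at 50.4 and 43.1 CPM in Flox and 40.3 and 30.0 CPM in β-Tead1-KO. The groups did not overlap, but the log2 fold change of −0.41 (SE 0.20, adjusted p = 0.398 by edgeR) did not pass the test, and it was −0.19 without β-Tead1-KO library 2. Summed over the 3 elongation and desaturation genes, the level was 195 and 333 CPM in Flox against 86.9 and 85.3 CPM, and Scd2 made up the most of it in both Flox libraries.

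Among the 5 SREBP regulators, 0 passed the test. The transcription factors and their escort had lower values, while the Insig brakes had log2 fold changes of 0.10 (Insig1) and 0.02 (Insig2). Srebf1, which encodes the SREBP-1 proteins that favour fatty acid genes, was at 67.5 and 124.8 CPM in Flox, against 46.3 and 43.9 CPM in β-Tead1-KO. The β-Tead1-KO libraries lay close together below both Flox libraries, which were far apart. The log2 fold change was −1.09 (SE 0.30, 95% interval −1.83 to −0.35, edgeR adjusted p = 0.135). Without Flox library 2 it was −0.58, and without Flox library 1 it was −1.46. Each of these fits has only 1 Flox library, as do those for Fasn and Acaca below.

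Srebf2, which encodes SREBP-2, the form that favours cholesterol genes, was at 85.0 and 140.6 CPM in Flox, against 70.0 and 50.8 CPM in β-Tead1-KO. Here too the groups did not overlap and Flox library 2 was the highest. Its log2 fold change was −0.90 (SE 0.29, 95% interval −1.62 to −0.18, edgeR adjusted p = 0.195), and −0.49 without Flox library 2. Scap, the escort, was at 70.5 and 75.3 CPM in Flox, against 55.8 and 52.4 CPM in β-Tead1-KO. Its libraries were close within each genotype, and its log2 fold change of −0.43 (SE 0.15, adjusted p = 0.227 by edgeR) lay between −0.47 and −0.37 whichever library was left out.

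Insig1, itself a target of SREBPs and the second most abundant of the 32 per kilobase of exon, was at 151.8 and 164.3 CPM in Flox, against 167.3 and 171.8 CPM in β-Tead1-KO. The 4 libraries spanned a narrow range, with a log2 fold change of 0.10 (95% interval −0.28 to 0.48, edgeR adjusted p = 0.801), and of −0.16 on junction reads (adjusted p = 0.663 by edgeR). Insig2, the partner brake, was at 45.2 and 40.8 CPM in Flox and 46.8 and 40.4 CPM in β-Tead1-KO. Its groups overlapped, and the log2 fold change was 0.02 (95% interval −0.39 to 0.43, edgeR adjusted p = 0.968), a sign that turned on lane 1 alone (−0.0249). Srebf1 overlaps Rai1 on the opposite strand, and without strand in the counts reads of overlapping genes cannot be told apart.

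**Figure D2:**
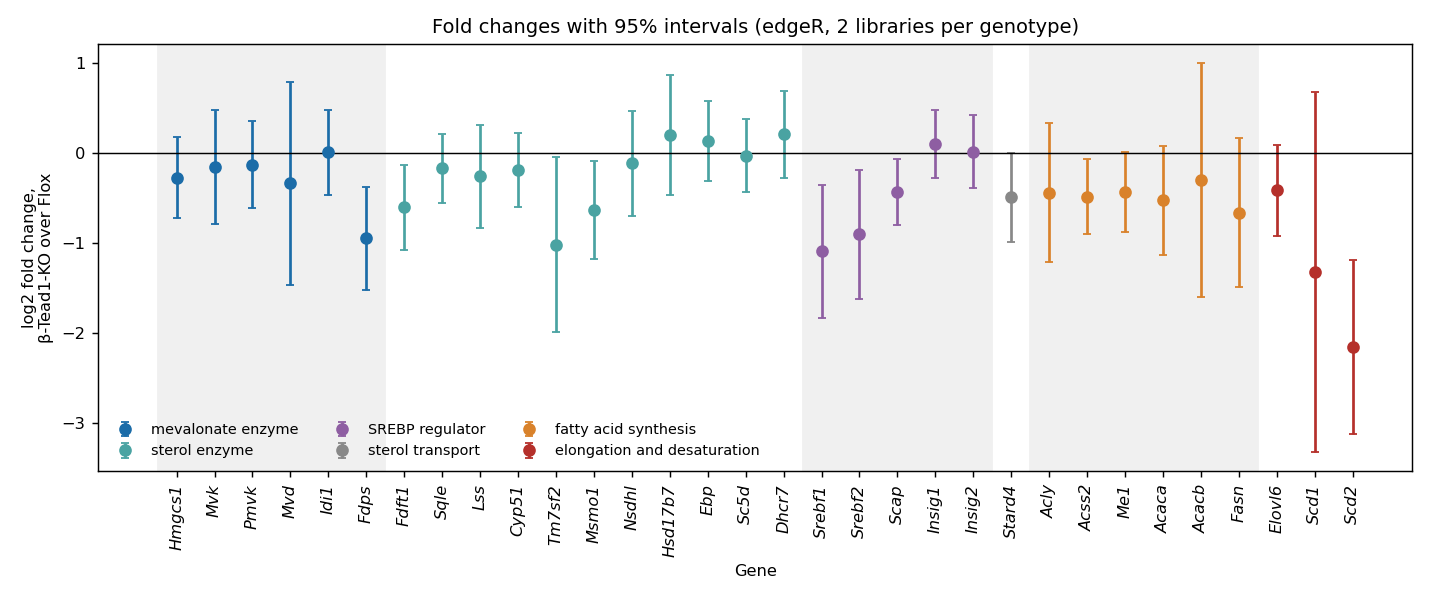
Log2 fold change of each gene, libraries labelled β-Tead1-KO over Flox, with its 95% interval from edgeR's quasi-likelihood fit (2 libraries per genotype). Colours and shading mark the roles, and the line is at no change. Most points lie below the line, the interval of Scd2 lies farthest from it, and Insig1 and Insig2 straddle it.

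The 6 mevalonate enzymes, which build the isoprenoid units, gave 0 calls. Hmgcs1, the cytosolic HMG-CoA synthase that opens the route and a classical SREBP-2 target, was at 58.2 and 72.6 CPM in Flox and 58.0 and 50.1 CPM in β-Tead1-KO. Flox library 1 and β-Tead1-KO library 1 were nearly equal, and the log2 fold change was −0.27 (SE 0.18, 95% interval −0.73 to 0.18, edgeR adjusted p = 0.53), or −0.11 without Flox library 2. Among the printed promoters, only that of Hmgcs1 holds an exact match to the sterol regulatory element.

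Fdps, farnesyl diphosphate synthase, stood apart from the other mevalonate enzymes. It was at 31.7 and 35.6 CPM in Flox, against 20.8 and 14.1 CPM in β-Tead1-KO, with no overlap. Fdps had a log2 fold change of −0.95 (SE 0.23, 95% interval −1.52 to −0.37, edgeR adjusted p = 0.107). DESeq2 called it (adjusted p = 0.0173), and edgeR with the library number as a block did so too (adjusted p = 0.0418). Only 63.1% of its exon reads were unique, so its level is uncertain where reads are shared with near-identical sequence.

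The other mevalonate enzymes had small fold changes, except that Mvd was too scarce to resolve. Mvk, mevalonate kinase, was between 4.43 and 5.74 CPM in all libraries (log2 fold change −0.15). Pmvk, phosphomevalonate kinase, was between 10.2 and 12.1 CPM (−0.13). Idi1, the isopentenyl diphosphate isomerase, was between 17.2 and 21.0 CPM (0.01, with 86.6% of its reads unique). Mvd, the decarboxylase, had only 218 exon reads over the 4 libraries and ranged from 1.58 to 3.67 CPM (−0.34, 95% interval −1.46 to 0.79), with its lowest and its second highest values both in the β-Tead1-KO libraries. Mvd overlaps Gm20388 on the opposite strand, which had 1955 exon reads.

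Of the 11 sterol enzymes, 0 passed the test, 8 had a log2 fold change below 0 and 3 above it. Sqle, squalene epoxidase, the first oxygen-requiring step, was the most abundant of them at 116.4 and 120.0 CPM in Flox and 112.1 and 98.3 CPM in β-Tead1-KO. The β-Tead1-KO libraries were both below both Flox libraries, by little: the log2 fold change was −0.17 (95% interval −0.55 to 0.22, edgeR adjusted p = 0.662). Lss (lanosterol synthase) was between 31.7 and 48.0 CPM, with a log2 fold change of −0.26 that turned to 0.07 without Flox library 2, and only 41.9% of its reads were unique. Cyp51, which removes a methyl group of lanosterol, was between 32.5 and 41.9 CPM (−0.19), and overlaps Akap9 on the opposite strand.

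A few sterol enzymes had larger fold changes that failed the adjustment. Fdft1, squalene synthase, was at 39.9 and 37.1 CPM in Flox and 28.7 and 22.0 CPM in β-Tead1-KO (log2 fold change −0.60, SE 0.19, edgeR adjusted p = 0.191). Msmo1, the sterol C4-methyl oxidase, was at 73.0 and 65.7 CPM in Flox and 53.3 and 36.3 CPM in β-Tead1-KO (−0.63, SE 0.22, edgeR adjusted p = 0.233). Tm7sf2, a sterol C14 reductase, was at 4.50 and 8.89 CPM in Flox and 2.82 and 3.72 CPM in β-Tead1-KO (−1.02, SE 0.39, edgeR adjusted p = 0.278). None of these overlapped between genotypes. For Msmo1 the value was −0.36 without β-Tead1-KO library 2, and for Tm7sf2 −0.46 without Flox library 2. Fdft1 overlaps Ctsb on the opposite strand, and Tm7sf2 overlaps Vps51 on the same strand, both with several times more reads.

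The late sterol steps had small fold changes. Ebp, the sterol isomerase, was between 17.2 and 20.9 CPM (log2 fold change 0.14), and Sc5d, the C5 desaturase, between 23.4 and 25.2 CPM (−0.03). Nsdhl and Hsd17b7, which act with Msmo1 in removing the C4 methyl groups, had −0.11 and 0.20. Dhcr7, which reduces 7-dehydrocholesterol to cholesterol, was at 18 and 17.4 CPM in Flox and 22.9 and 18 CPM in β-Tead1-KO (0.21, 95% interval −0.27 to 0.70, edgeR adjusted p = 0.659). Stard4, which carries cholesterol between membranes, was at 26.2 and 32.9 CPM in Flox and 19.2 and 22.7 CPM in β-Tead1-KO, with no overlap (−0.49, SE 0.20, edgeR adjusted p = 0.297, and −0.32 without Flox library 2).

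The 6 genes of fatty acid synthesis all had log2 fold changes below 0, from −0.66 to −0.30, and 0 of them passed the test. Acly, ATP-citrate lyase, which releases acetyl-CoA from citrate in the cytosol, was by far the most abundant of the 32 genes. It took 45.7% and 50.7% of their exon reads in Flox and 50.3% and 49.8% in β-Tead1-KO, and per kilobase of exon its mean was 242 CPM, against 53.0 for Insig1 and 23.0 for Scd2. Its level was 1127 and 1817 CPM in Flox and 1150 and 1024 CPM in β-Tead1-KO. Flox library 2 alone stood high, and the groups overlapped. For Acly the log2 fold change was −0.44 (SE 0.31, 95% interval −1.21 to 0.34, edgeR adjusted p = 0.564), and −0.05 without Flox library 2.

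Fasn, the fatty acid synthase, showed the same arrangement: 79.1 and 163.3 CPM in Flox, 76.1 and 77.1 CPM in β-Tead1-KO. Flox library 1 lay just above both β-Tead1-KO libraries, and Flox library 2 stood alone far above them. For Fasn the log2 fold change was −0.66 (SE 0.34, 95% interval −1.49 to 0.17, edgeR adjusted p = 0.41). Without Flox library 2 it was −0.05, and without Flox library 1 it was −1.08. Acaca, the acetyl-CoA carboxylase that makes malonyl-CoA for synthesis, was at 53.8 and 86.2 CPM in Flox and 47.6 and 49.6 CPM in β-Tead1-KO, again without overlap and with Flox library 2 highest. Its log2 fold change of −0.53 (SE 0.25, adjusted p = 0.369 by edgeR) was −0.15 without Flox library 2 and −0.82 without Flox library 1.

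Acss2 and Me1 were close between the Flox libraries. Acss2, the cytosolic acetyl-CoA synthetase, was at 28.6 and 29.1 CPM in Flox and 22.1 and 19.3 CPM in β-Tead1-KO (log2 fold change −0.48, SE 0.17, edgeR adjusted p = 0.232). Me1, the cytosolic malic enzyme that supplies NADPH, was at 27.1 and 24.4 CPM in Flox and 20.7 and 17.6 CPM in β-Tead1-KO (−0.43, SE 0.18, edgeR adjusted p = 0.315). The groups did not overlap for either gene. Acss2 shares its span with Ggt7 and Gss on the opposite strand. Acacb, the mitochondrial carboxylase whose malonyl-CoA restrains fatty acid oxidation, was the least abundant of the 32 per kilobase, at 0.233 CPM, and ranged from 1.35 to 3.67 CPM with overlapping groups (−0.30).

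Much of the spread lay within the Flox genotype. The log2 ratio of Flox library 2 to library 1 was above 0.5 for 10 of the 32 genes, against 17.4% of all genes tested. They were Acacb (1.44), Scd2 (1.07), Fasn (1.05), Srebf1 (0.89), Srebf2 (0.73), Acly (0.69) and Acaca (0.68), and the mevalonate and sterol enzymes Tm7sf2 (0.98), Mvd (0.60) and Lss (0.60). The same ratio within β-Tead1-KO was above 0.5 for 1 gene, Scd2 (0.52), against 12.8% of all genes. The median ratio over the 6 fatty acid synthesis genes was 0.69 within Flox and −0.07 within β-Tead1-KO, while over the 11 sterol enzymes it was −0.05 and −0.22. Together the 32 genes took 0.242% and 0.361% of the exon reads of Flox, and 0.228% and 0.208% of those of β-Tead1-KO. Flox library 2 had the fewest exon reads, the highest intron share (43.1%) and a higher summed acinar marker CPM than Flox library 1. Within β-Tead1-KO, library 2 also had a higher intron share than library 1 (38.0% against 29.4%). Its acinar sum was higher too (7628 against 910 CPM). Lymphocyte markers went the other way, with sums of 38.55 and 14.11 CPM in Flox and 35.14 and 10.85 CPM in β-Tead1-KO. The part of depth, intron share, acinar and lymphocyte markers in these values was not tested.

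**Figure D3:**
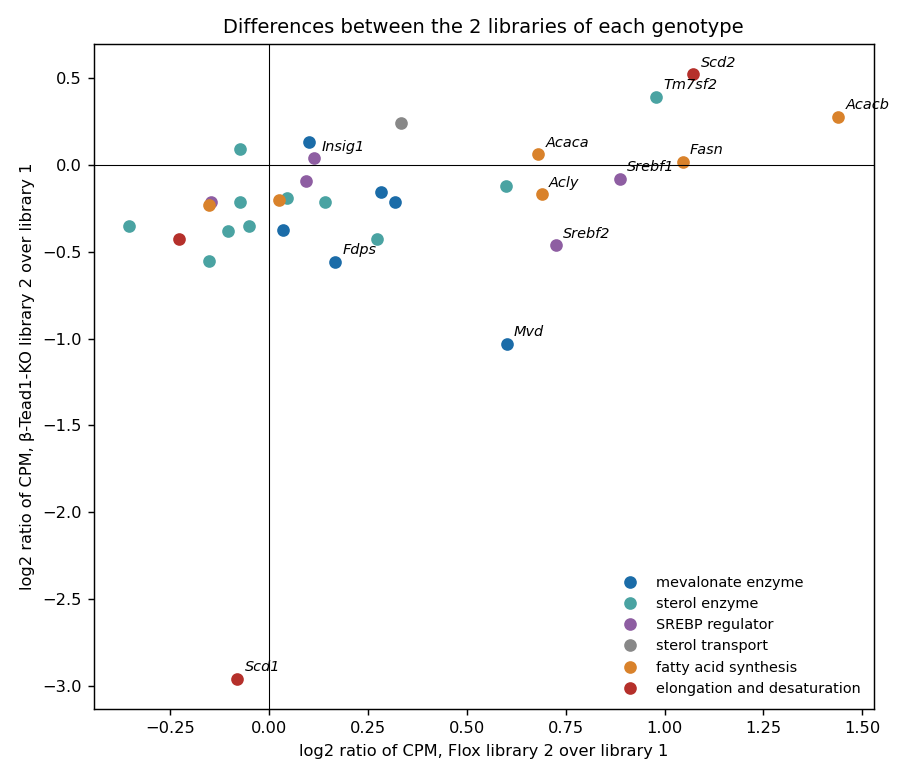
Log2 ratio of library 2 to library 1 for each of the 32 genes, in Flox on the horizontal axis and in β-Tead1-KO on the vertical axis, both from TMM-scaled CPM and coloured by role, with lines at equal levels. Most fatty acid synthesis genes lie to the right (Fasn at 1.05, Acly at 0.69, Acaca at 0.68) and near 0 on the vertical axis. Scd1 lies far down, at −2.96, from its low value in β-Tead1-KO library 2.

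Junction reads, which come from spliced RNA alone, gave a median log2 fold change of −0.41 over the 32 genes (−0.01 over all genes), with 29 of 32 below 0 and 1 call, Scd2 (4.2% of all genes were called on junction reads, 2.13% lower). Intron reads, which come mostly from unspliced RNA, could be tested for 31 of the 32. Their median was −0.20 (−0.04 over all genes), 18 were below 0, 1 had an unadjusted p below 0.05, and 0 were called by edgeR, where 0.748% of all genes were called on intron reads, 0.318% lower. Missing the threshold there does not show that intron levels were equal. For Insig1 the intron value was 0.90 (edgeR adjusted p = 0.601), and for Srebf1 −0.37 (edgeR adjusted p = 0.853).

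Related lipid genes were read from the same fit. Of 116 such genes in 7 lists, 115 were matched and 108 tested: 3 rose and 0 fell, near the 1.76% and 1.6% of all genes that did so, and the median log2 fold change was −0.01, the same as over all genes. The genes that rose were Cyp27a1, Me3 and Gpat3, each from a low level in Flox. DESeq2 called 7 higher and 1 lower, where it called 3.83% of all genes higher and 3.76% lower. By list, with single calls that are too few to set a list apart, 1 of 18 genes of sterol uptake, transport, efflux and esterification rose, 1 of 13 of carbon and NADPH supply and lipogenic regulators, and 1 of 18 of glycerolipid synthesis and storage. No call was made among 10 genes of SREBP processing and sterol-regulated degradation, 11 of isoprenoid branches, 21 of fatty acid elongation, desaturation and activation, and 17 of fatty acid oxidation.

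Cyp27a1, the mitochondrial sterol 27-hydroxylase that turns cholesterol into an oxysterol, was at 1.02 and 0.423 CPM in Flox, against 5.69 and 6.49 CPM in β-Tead1-KO. The groups were well apart, on 22 and 6 exon reads in Flox and 127 and 173 in β-Tead1-KO. On the log2 scale the fold change was 3.00 (SE 0.43, 95% interval 1.94 to 4.07, edgeR adjusted p = 0.0271). It did not pass without β-Tead1-KO library 1 (adjusted p = 0.129) or library 2 (0.154), nor on lane 2 alone (0.0665).

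Me3, the mitochondrial NADP-dependent malic enzyme, was at 6.08 and 4.09 CPM in Flox, against 30.4 and 34.6 CPM in β-Tead1-KO. The groups were well apart, whereas Me1, the cytosolic counterpart, had a log2 fold change of −0.43. The log2 fold change was 2.67 (SE 0.25, 95% interval 2.04 to 3.29, edgeR adjusted p = 0.00863), and intron reads gave 2.38 (edgeR adjusted p = 0.0492). Without β-Tead1-KO library 2 the adjusted p was 0.0594. Gpat3, a glycerol-3-phosphate acyltransferase of the endoplasmic reticulum listed in the tables as Agpat9, was at 1.53 and 1.13 CPM in Flox, against 11.2 and 11.5 CPM in β-Tead1-KO. On the log2 scale the difference was 3.06 (SE 0.28, 95% interval 2.38 to 3.75, edgeR adjusted p = 0.00723). Without β-Tead1-KO library 1 or 2 the adjusted p was 0.0550 or 0.0665.

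Mesenchymal and erythroid markers were higher in the same libraries: 8 of 8 mesenchymal markers and 5 of 5 erythroid markers lay above both Flox libraries, with 2 and 1 called. The 6 endothelial markers did so too, with sums of 505.5 and 504.3 CPM in Flox against 555.6 and 555.2 CPM. Of 6 macrophage markers, 2 lay above both Flox libraries and 1 below both, with 0 called. They summed to 88.6 and 94.1 CPM in Flox against 127.3 and 112.0 CPM. Of all genes, 23.9% lay above both Flox libraries and 24.2% below both. The part of these markers in the values of Cyp27a1, Me3 and Gpat3 was not tested. Gpat3 overlaps 4930458D05Rik on the opposite strand, which had 200 exon reads against 603. Elovl5, an elongase of polyunsaturated fatty acids singled out after its values were seen, was at 140.3 and 137.5 CPM in Flox, against 281.9 and 231.5 CPM in β-Tead1-KO. Its log2 fold change of 0.89 (SE 0.18, adjusted p = 0.0615 by edgeR) missed the threshold on exon reads and passed it on junction reads (edgeR adjusted p = 0.0419).

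**Figure D4:**
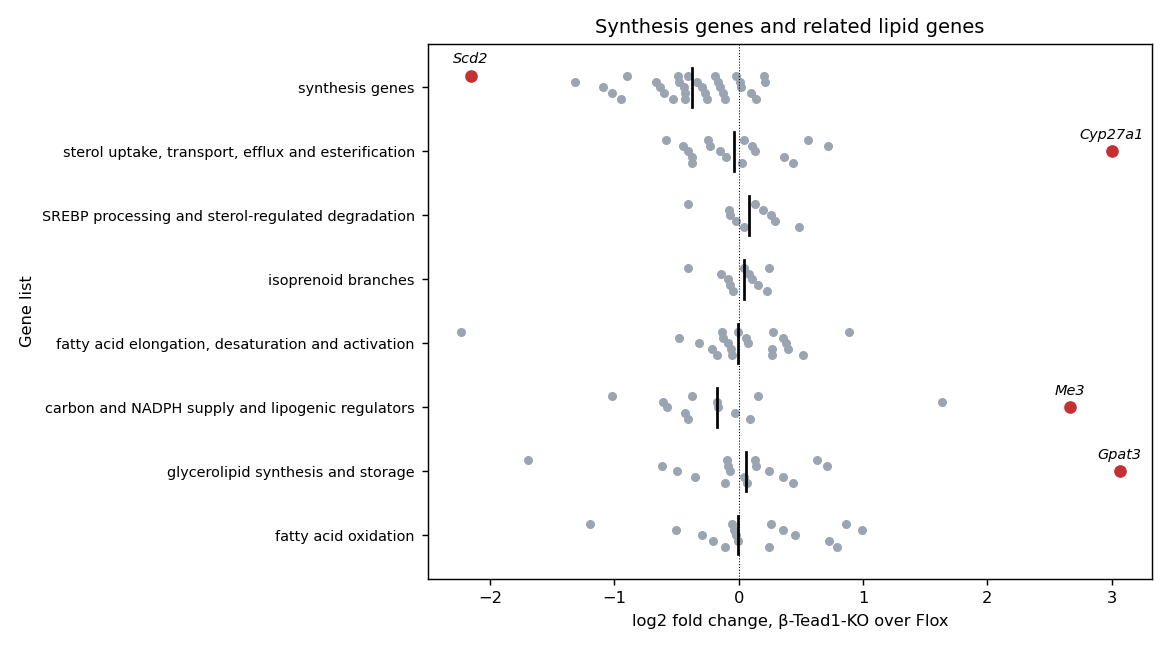
Log2 fold change, libraries labelled β-Tead1-KO over Flox, of the 32 synthesis genes and of the tested genes of 7 related lists. Each point is a gene, red points passed edgeR's test at an adjusted p below 0.05, and black bars are list medians. The synthesis genes have a median of −0.37 with Scd2 as the single call, and the 3 calls of the related lists lie at the right, between 2.67 and 3.06.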

How the data were processed

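Per the labels' protocols, hand-picked islets from collagenase digests and a density gradient gave total RNA for TruSeq RNA libraries. The deposited tables hold whole-number counts of exon, junction and intron reads per gene and lane, per the file headers, with RPKM and TPM beside them, which were not used for tests. RPKM times exon length over exon reads was constant within each deposited table, so the authors made RPKM from total exon reads. Gene names and positions are those of the files, on mm10 per the submitters' processing notes. Not given in the sources used here are the aligner, the counter, its annotation and whether strand was used.

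Exon counts of the 2 lanes were summed per library. Genes were filtered with filterByExpr (minimum count 10, minimum total 15) and TMM-scaled, and genotypes were compared with edgeR 4.0.16 in R 4.3.3 (quasi-likelihood, 2-sided, Benjamini-Hochberg, threshold 0.05). The biological coefficient of variation was 24.3%. DESeq2 1.42.0, limma 3.58.1 and the other alternatives are in the closing section. The test was checked on simulated data. Exon reads per library were 14069569 to 26387280, and precision is limited by 2 libraries per genotype. Standard errors are the size of the fold change over the root of F. The members and lists were chosen with earlier results of these data known. Fully described were members past the threshold, the 6 largest fold changes at a mean CPM of at least 5 and a core list, with related genes named only past the threshold unless stated.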

Additional observations from a re-analysis of the deposited data

How the results depend on the processing

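Over all genes, edgeR called 504, DESeq2 called 1117, and 67 to 2359 were called with 1 library left out. Among the 32 synthesis genes the count of 1 became 4 with DESeq2, 0 with limma-voom, 0 with edgeR's legacy mode, 0 with RLE factors and 0 with no filter, and ran from 0 to 7 with 1 library left out, the 7 without Flox library 1. Among the related genes the count of 3 became 8 with DESeq2 and ran from 0 to 20 with 1 library left out. Intron calls of the 32 ran from 0 to 6 on leaving out 1 library. With 1 library left out, the highest counts over all genes, the 32 and the related genes all came without Flox library 1. That fit called more of all genes than any other setting, so its counts do not single out the lipid genes. Intron calls of the 32 were also highest in the fit without Flox library 1, and went both ways, some lower and some higher. These intron calls were not compared with those of all genes. The median log2 fold change of the 32 stayed between −0.47 and −0.14.

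The library numbers are shared between genotypes, but no label says that they mark a pair; same-numbered libraries deviated together with r = 0.392 across 15014 genes. With the library number as a replicate block, 1157 of the 15014 genes tested were called. These held 3 of the 32 (Fdps, Srebf1 and Scd2) and 9 of the 108 related genes tested, both near the share of all genes. On intron reads, 1 of the 32 was called with this block.

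Signs turned for 11 of the 32 genes, none of them called. On lane 2 alone they turned for Pmvk (0.0367), Mvd (0.0258), Nsdhl (0.00025) and Acacb (0.0434), on lane 1 alone for Idi1 (−0.0256) and Insig2 (−0.0249), on junction reads for Idi1 (−0.20), Hsd17b7 (−0.28) and Insig1 (−0.16), and with no filter for Sc5d (0.0217). With 1 library left out, Mvk ranged from −0.32 to 0.0432, Mvd from −0.91 to 0.12, Idi1 from −0.11 to 0.16, Lss from −0.51 to 0.0723, Nsdhl from −0.28 to 0.0882, Sc5d from −0.0623 to 0.0489, Insig2 from −0.0615 to 0.14 and Acacb from −0.87 to 0.56. The cause of these shifts was not tested. Of the values of single genes, 478 kept their direction and side of the threshold, 22 turned sign, 12 gained a call and 12 lost one. With 2 libraries per genotype and pools of unclear size, small shifts cannot be resolved.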
